A study of Mus musculus with 6 samples.

Results

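Dense clusters of Hand2 peaks are stretches of the mouse genome in which the transcription factor (TF) Hand2 was found at many neighbouring sites in the E11.5 mandibular prominence (MNP), the embryonic outgrowth that forms the lower jaw and the tongue. They were chosen by the positions of the Hand2 peaks alone. Neighbouring peaks separated by 12500 bp or less were joined into runs, and runs of 8 or more peaks were kept. Of 33839 runs, 381 met this rule, and they held 3915 of the 59583 Hand2 peaks, or 6.57%. One further run, of 49 peaks over the tandem array of 5S ribosomal RNA genes on chromosome 8, was left out.

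ChIP-seq was performed with an anti-FLAG M2 antibody on pooled facial tissue of CD1 embryos. The 3 groups were Gli3 in the whole face and Gli3 in the MNP, both from embryos labelled Gli3 3XFlagbio, and Hand2 in the MNP from embryos labelled Hand2 3XFlagbio, with 2 replicates in each and 6 samples in all. The tag sits in the endogenous gene, so every group carries a tagged protein from its own locus, and the tissue contains all cell types of the prominences. The stage is E11.5 in the labels and E10.5 in the design text of the series. The authors merged both replicates into 1 peak list per group, which holds positions and peak names without heights or read counts. The depth behind a peak is therefore unknown, no value has an error between replicates, and the intervals and p-values given here are over peaks and cover counting error only.

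Hand2 is a basic helix-loop-helix (bHLH) TF that binds E-boxes, short sites of the form CANNTG, together with broadly expressed bHLH partners known as E proteins. In the pharyngeal arches *Hand2* is switched on by endothelin signaling and marks the lower jaw. Gli3 is a zinc finger TF through which Hedgehog signaling acts, and its best known site is GACCACCC. Genes that control development are often flanked by many cis-regulatory modules (CRMs) at a distance, so a stretch with many peaks of 1 TF can belong to a single gene, several genes or none that is near.

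The sequences below are the middle 200 bp of Hand2 peaks from clusters described further on, read from the plus strand of GRCm38.p6. The *Twist1* and *Rpusd4* peaks are shown because they hold the most CAGATG, the E-box counted here. The *Dnm3* peak is shown as an example, not the only one, of a peak with 2 copies that touches Gli3. The *Fzd2* peak is shown because it holds both CAGATG and GACCACCC. Capitals mark CAGATG, which reads as CATCTG where it lies on the other strand, and also mark GACCACCC.
Twist1 cluster, chr12:33980251-33980450: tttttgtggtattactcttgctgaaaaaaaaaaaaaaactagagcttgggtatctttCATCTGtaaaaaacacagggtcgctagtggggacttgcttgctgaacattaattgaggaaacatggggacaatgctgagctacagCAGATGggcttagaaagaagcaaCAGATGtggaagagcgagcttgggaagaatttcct
Rpusd4 cluster, chr9:35338873-35339072: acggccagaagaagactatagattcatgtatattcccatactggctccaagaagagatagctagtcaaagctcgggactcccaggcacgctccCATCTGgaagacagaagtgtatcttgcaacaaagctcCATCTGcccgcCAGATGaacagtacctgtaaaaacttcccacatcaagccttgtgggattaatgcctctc
Dnm3 cluster, chr1:162134822-162135021: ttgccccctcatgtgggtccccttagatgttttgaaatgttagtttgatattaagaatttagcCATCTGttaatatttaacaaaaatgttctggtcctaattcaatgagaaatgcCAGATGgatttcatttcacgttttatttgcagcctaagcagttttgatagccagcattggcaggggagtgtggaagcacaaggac
Fzd2 cluster, chr11:102637144-102637343: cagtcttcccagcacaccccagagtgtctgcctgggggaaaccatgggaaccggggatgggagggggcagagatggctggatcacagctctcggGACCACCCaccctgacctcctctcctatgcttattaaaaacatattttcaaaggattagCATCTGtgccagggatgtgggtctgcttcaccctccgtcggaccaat

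The peaks of the *Twist1* and *Rpusd4* clusters hold 3 copies of CAGATG each, and neither touches a Gli3 peak. The *Dnm3* peak holds 2 copies and touches a Gli3 whole face peak. The *Fzd2* peak, with 1 copy of each motif, touches Gli3 peaks of both tissues and was the only one in the clusters described here, chromosome 18 left out, with both motifs outside repeated and untranslated sequence. Counted on either strand, CAGATG was in the middle 200 bp of 28.2% of all Hand2 peaks, and GACCACCC in 0.583%. A match is a description of the letters and not proof of a bound site.

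The Hand2 clusters covered a small part of the genome. Together they spanned 17.9 Mb, which is 0.655% of chromosomes 1 to 19, X and Y. The median cluster had 9 peaks (8 to 38) in 42.7 kb (15.5 to 139.7 kb), with a median distance of 3600 bp between neighbours. There were 138 clusters of 8 peaks, 83 of 9, 48 of 10, 93 of 12 or more, 40 of 15 or more and 5 of 20 or more. In contrast, 21250 peaks stood alone. The rule sets these sizes, and the runs fell off steadily through the threshold. The 138 runs of exactly 8 peaks, just inside it, had a median span of 37.5 kb and held 89 Gli3 MNP and 114 Gli3 whole face peaks. The 222 runs of exactly 7 peaks, just outside it, had a median span of 30.6 kb and held 102 Gli3 MNP and 139 Gli3 whole face peaks.

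**Figure D1:**
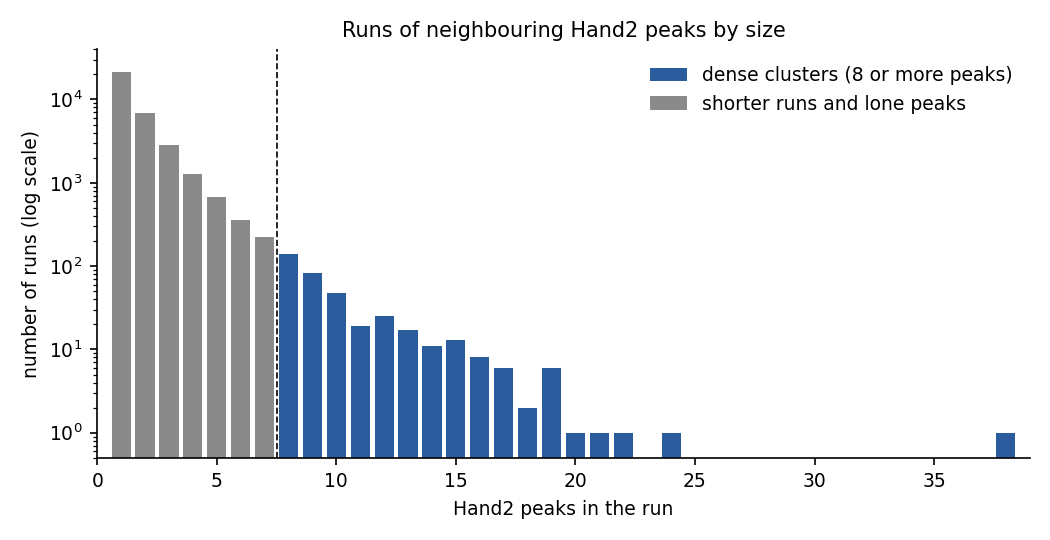
Number of runs (log scale) against the number of Hand2 peaks in the run. Bars in blue are the 381 dense clusters and bars in grey are the shorter runs and the 21250 lone peaks; the counts fall without a break at 8 peaks, and a single cluster of 38 stands apart.

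Every autosome and both sex chromosomes held at least 1 cluster. Chromosome 13 had 30 clusters with 10.8% of its Hand2 peaks, chromosome 11 had 31 clusters with 9.28%, and chromosome 19 had 5 clusters with 3.00%. Clusters also lay near each other, and 43 had another cluster within 50 kb and 68 within 100 kb. The peaks inside clusters were wider, with a median of 510 bp in clusters and 447 bp among other Hand2 peaks. The replicate calls themselves were not at hand and were counted from the serial numbers in the merged peak names. Between the first and last shared call of each cluster, 92.7% of replicate 1 calls (4073 of 4396) were in the shared list. For replicate 2 the share was 88.3% (3978 of 4506). Over all calls up to the last serial number in the shared list, the shares were 80.7% and 73.0%. The cluster counts start and end at shared calls, which raises their shares. The widths and these shares come from the same peak calls as the rule and are given without a test.

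The clusters were mostly away from promoters. Of their Hand2 peaks, 48.4% had a midpoint in intergenic sequence, 47.5% in an intron, 1.58% in a coding exon and 2.53% in a UTR, against 49.99%, 43.0%, 1.87% and 5.11% of other Hand2 peaks. A protein-coding transcription start site (TSS) lay within 1 kb of 278 of 3915 cluster peaks, or 7.10% (95% Wilson interval 6.34 to 7.95%), against 7618 of 55619 other Hand2 peaks, or 13.7% (13.4 to 14.0%). The background over all Hand2 peaks was 13.3%. The odds ratio, clusters over other peaks, was 0.482 (95% interval 0.387 to 0.600, adjusted p = 1.9e-10, n = 381 clusters). This and the other peak-level tests used a logistic model with errors grouped by run, since peaks of a run are neighbours. The p-values were adjusted by Benjamini-Hochberg over 6 comparisons. Where distal or promoter peaks were taken alone, the TSS comparison could not be made and the adjustment was over the other 5. With a gap of 5 kb, which left 36 clusters, the odds ratio was 1.06. No promoter peak was present in 236 clusters, no protein-coding gene body in 116, and in 85 the nearest TSS was over 100 kb away (78 where gene models with Gm or Rik names count), while 171 clusters had a TSS inside.

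Gli3 peaks were found in 232 of the 381 clusters, and more often from the whole face than from the MNP list.
At least 1 Gli3 MNP peak lay in 150 clusters (39.4%), and at least 1 Gli3 whole face peak in 210 (55.1%). Both were present in 128 clusters, MNP peaks only in 22, whole face peaks only in 82 and neither in 149. In all, 276 Gli3 MNP peaks (5.09% of that list) and 383 Gli3 whole face peaks (6.66%) fell inside clusters. The whole face count was higher in 131 clusters and the MNP count in 40. Of the Gli3 peaks inside clusters, 85.1% of the MNP list and 79.9% of the whole face list touched a Hand2 peak, against 61.4% and 47.6% of all Gli3 peaks of the MNP and whole face lists. The clusters were chosen for their Hand2 peaks, so these shares are given without a test.

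**Figure D2:**
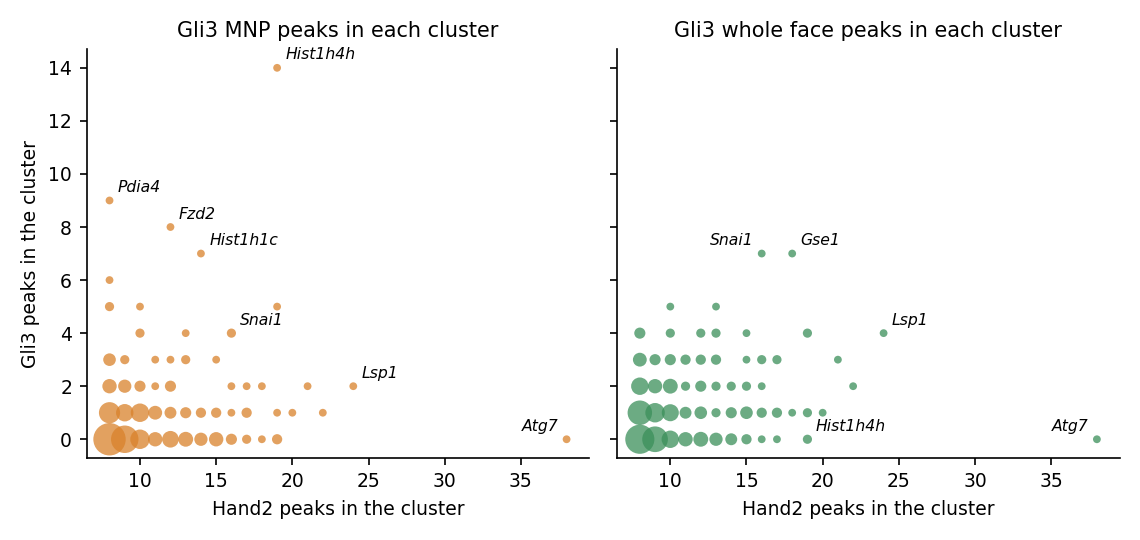
Gli3 peaks (MNP list on the left, whole face list on the right) against Hand2 peaks in each of the 381 clusters; a larger point stands for more clusters at the same counts. Most clusters hold 0 to 3 Gli3 peaks whatever their Hand2 count, the cluster near *Atg7* with 38 Hand2 peaks holds none, and the *Hist1h4h* cluster holds 14 Gli3 MNP peaks and 0 Gli3 whole face peaks.

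To ask whether a Hand2 peak in a dense stretch met Gli3 more often than another Hand2 peak, overlap was counted peak by peak. Of cluster peaks, 305 of 3915 touched a Gli3 whole face peak, or 7.79% (6.99 to 8.67%), against 2358 of 55619 other Hand2 peaks, or 4.24% (4.08 to 4.41%). The odds ratio was 1.91 (1.64 to 2.22, adjusted p = 2.2e-16, n = 381 clusters), on a background of 4.47% of all Hand2 peaks. Where Gli3 had to cover at least 50% of the Hand2 peak, the shares were 1.07% and 0.820% and the difference did not pass (odds ratio 1.31, adjusted p = 0.37, n = 3915 cluster peaks). That rule asks for longer cover of wider peaks, and cluster peaks were the wider (median 510 bp against 447 bp). It is thus not an equal demand on cluster and other peaks. For the MNP list the shares were 6.59% of cluster peaks (258 of 3915, 5.85 to 7.41%) and 5.78% of other peaks (3216 of 55619, 5.59 to 5.98%), on a background of 5.84%. This difference did not pass the test (odds ratio 1.15, 0.920 to 1.44, adjusted p = 0.44, n = 381 clusters).

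The overlap was then counted apart for distal and promoter peaks. Among Hand2 peaks over 1 kb from a TSS, 173 of 3637 cluster peaks (4.76%) touched a Gli3 MNP peak, against 974 of 48001 other peaks (2.03%), with an odds ratio of 2.41 (1.93 to 3.02, adjusted p = 3.2e-14, n = 3637 cluster peaks). With the clusters in repeated sequence also left out, the odds ratio was 2.27 (1.83 to 2.81, adjusted p = 1.6e-13, n = 3563 cluster peaks). Among Hand2 peaks within 1 kb of a TSS, the shares were 30.6% in clusters (85 of 278) and 29.4% elsewhere (2242 of 7618), with an odds ratio of 1.06 (0.667 to 1.67, adjusted p = 0.82, n = 278 cluster peaks). For the whole face list the distal shares were 7.89% in clusters and 3.67% elsewhere (odds ratio 2.25, 1.92 to 2.63, adjusted p = 1.6e-23, n = 3637 cluster peaks), and the promoter shares were 6.47% and 7.82% (odds ratio 0.816, 0.485 to 1.37, adjusted p = 0.69). Whether the distal and promoter odds ratios differ from each other was not tested.

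Distal overlap with Gli3 also followed the size of the run below the threshold. The share of distal Hand2 peaks touching Gli3 MNP was 1.38% for lone peaks, 2.03% in runs of 2 to 3, 3.07% in runs of 4 to 7 and 4.76% in clusters, and the 4 Wilson intervals did not overlap. For Gli3 whole face it was 2.55%, 3.88%, 5.10% and 7.89%, again without overlap of the intervals, which do not allow for neighbours in 1 run. Set against distal peaks in runs of 4 to 7 alone, cluster peaks had an odds ratio of 1.58 for the MNP list (1.23 to 2.02, adjusted p = 0.00069, n = 3637 cluster peaks) and 1.59 for the whole face list (1.34 to 1.90, adjusted p = 6.1e-07). Cluster peaks were also wider. With width and GC content in the model, the distal odds ratios were 1.51 (adjusted p = 0.0014, n = 3637 cluster peaks) for the MNP and 1.48 (adjusted p = 1.5e-05) for the whole face list.

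**Figure D3:**
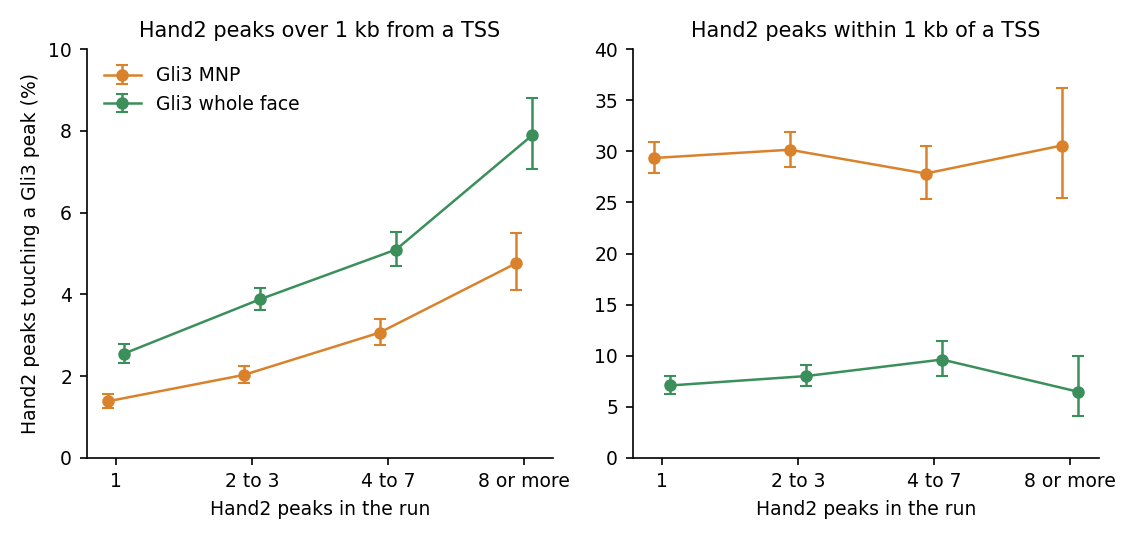
Share of Hand2 peaks touching a Gli3 peak (percent, with 95% Wilson intervals as bars) against the number of Hand2 peaks in the run, for peaks over 1 kb from a TSS (left) and within 1 kb (right; the vertical scales differ). Distal shares climb with run size to 4.76% for Gli3 MNP and 7.89% for Gli3 whole face in runs of 8 or more, while the promoter shares of runs of 8 or more, 30.6% and 6.47%, lie within the range of intervals of the shorter runs.

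None of the 3 motifs in the middle of the peaks differed between cluster peaks and other peaks past the test. CAGATG was in 27.8% of cluster peaks (1088 of 3915) and 28.3% of other peaks (odds ratio 0.977, 0.906 to 1.05, adjusted p = 0.66, n = 3915 cluster peaks). TAATTA, the core bound by many homeodomain TFs, was in 6.59% and 6.55% (odds ratio 1.01, 0.876 to 1.16, adjusted p = 0.93, n = 3915 cluster peaks), with a background of 6.55%. GACCACCC was in 0.664% (26 peaks) and 0.577% (321 peaks; odds ratio 1.15, 0.757 to 1.75, adjusted p = 0.66, n = 3915 cluster peaks). The intervals include differences in both directions, and that of GACCACCC was the widest. Counted over whole peaks, which were wider in clusters, CAGATG (odds ratio 1.17, adjusted p = 0.00012, n = 3915 cluster peaks) and GACCACCC (1.53, adjusted p = 0.00057) were more frequent in clusters. Among distal peaks alone, CAGATG was less frequent in clusters, at 28.8% against 30.8% (odds ratio 0.910, 0.845 to 0.980, adjusted p = 0.02, n = 3637 cluster peaks).

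Within the clusters, the peaks that touched Gli3 were not alike. Those touching both Gli3 lists (133 peaks) were the widest, with a median of 853 bp, and 6.77% of them (9 peaks) held GACCACCC in the middle 200 bp. Those touching the MNP list alone (125 peaks) had a median width of 612 bp, a GC content of 61.5% and a TSS within 1 kb in 56.0%, and 11.2% held CAGATG. Those touching the whole face list alone (172 peaks) had a median width of 757 bp and a TSS within 1 kb in 1.74%, and 27.9% held CAGATG. The 3485 peaks touching neither had a median width of 491 bp, and 28.5% held CAGATG and 0.373% GACCACCC. Some of these traits were also seen outside clusters and are not particular to them. Peaks touching both lists were again the widest and richest in GACCACCC, and those touching the MNP list alone were again most often near a TSS. The shares within 1 kb of a TSS were higher in every group of other Hand2 peaks. For peaks touching both lists they were 11.3% in clusters and 36.7% among other Hand2 peaks, and for those touching neither 5.45% and 10.1%. There, peaks touching both lists were also the widest, with a median of 657 bp, and 7.85% held GACCACCC. Of those touching the MNP list alone, 86.8% had a TSS within 1 kb and 8.35% held CAGATG. Of those touching the whole face list alone the shares were 15.4% and 29.6%. Of those touching neither, 0.340% held GACCACCC. All of these are descriptions, and whether they differ was not tested.

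A larger share of the genes that pattern the jaw and its mesenchyme than of all genes was at a dense cluster. A gene was counted at a cluster when its body overlapped the cluster or, where no body did, when its TSS was nearest. Gene models with Gm or Rik names were passed over as the nearest gene, which set the name of 12 of the 116 clusters without a gene body. By this rule 460 of 21911 protein-coding genes, or 2.1%, were at a cluster. Of 30 genes for mandibular and pharyngeal arch patterning 11 were at a cluster, of 23 regulators of neural crest and mesenchyme 8, of 21 genes of the Hedgehog pathway and its targets 5, and of 28 Wnt, Bmp and Fgf signals and receptors 3. The count was 1 of 17 for cartilage (*Sox6*) and 1 of 15 for blood and endothelium (*Runx1*), and 0 for bone (16), skeletal muscle (23), neurons (16), epithelium (14) and liver (13). These counts depend on the genes listed, and muscle genes outside the list, *Tnnt3* and *Myom1*, overlapped clusters. Listed genes were few among the genes at clusters, and 31 of the 381 clusters had one. Counting gene bodies only, 7 of the 30 patterning genes and 8 of the 23 crest and mesenchyme regulators lay in a cluster, beside 1.68% of all genes. The lists were drawn up with earlier results of these data known, so the counts are descriptions.

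Lists differed in the ground around their genes. The stretch between the neighbouring protein-coding genes on either side had a median of 299 kb for patterning genes, 519 kb for crest and mesenchyme regulators and 242 kb for Hedgehog genes, against 76.9 kb for all genes. It was 319 kb for neuronal, 122 kb for bone, 91.7 kb for epithelial, 80.9 kb for skeletal muscle and 66.9 kb for liver genes, none of which was at a cluster. Hand2 peaks per 100 kb of that stretch had a median of 6.21 for patterning genes, 3.28 for crest and mesenchyme regulators and 5.80 for Hedgehog genes, against 1.91 for all genes. It was 4.31 for bone, 3.63 for cartilage, 3.23 for skeletal muscle and 1.95 for neuronal genes, so that bone and cartilage genes had more peaks per length than crest and mesenchyme regulators. The part of this ground in the counts was not tested.

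**Figure D4:**
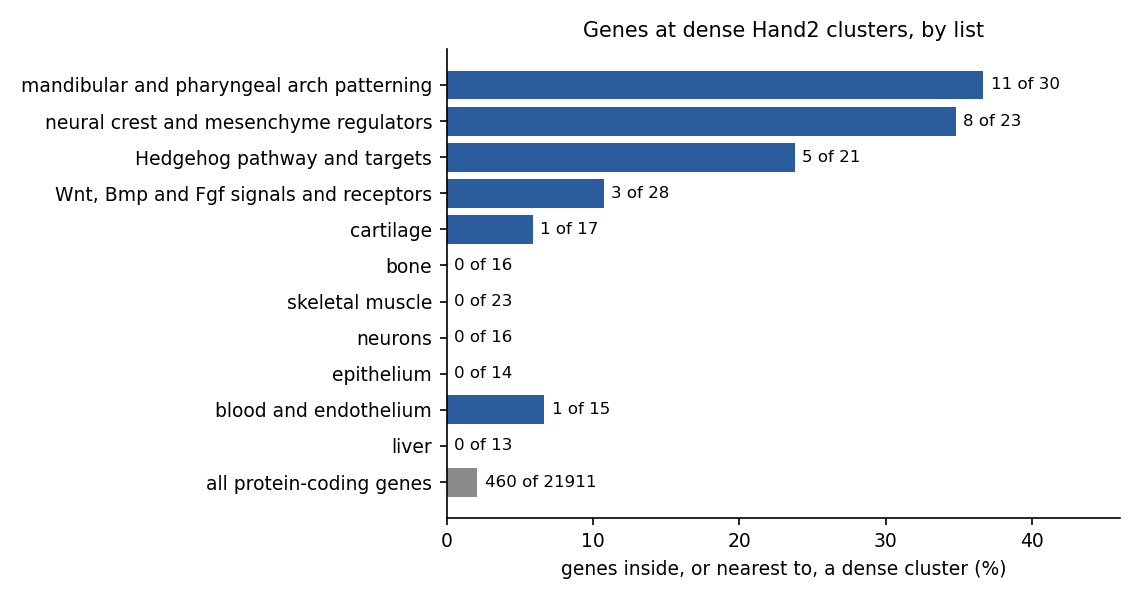
Percent of the genes of each list that lie inside, or are nearest to, a dense Hand2 cluster, with the counts beside each bar; the grey bar is all 21911 protein-coding genes. Patterning genes (11 of 30) and crest and mesenchyme regulators (8 of 23) have the longest bars, and bone, skeletal muscle, neurons, epithelium and liver have none.

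Listed genes accounted for 31 clusters, of which 21 (67.7%) overlapped a gene body, where 116 of all 381 clusters (30.4%) overlapped none. No promoter peak was in 17 of the 31 (54.8%), against 236 of all 381 (61.9%). Gli3 peaks of both tissues were in 11 of the 31 (35.5%), against 128 of all 381 (33.6%). No Gli3 peak was in 12, or 38.7%, where 149 of all 381 clusters (39.1%) had none.

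Among the bHLH genes, *Hand2* itself lay in a cluster of 16 Hand2 peaks over 56.7 kb (chr8:57312217-57368937). By their midpoints, which set the distances of peaks here, these peaks lay between 8.5 kb upstream and 47.5 kb downstream of its TSS, none within 1 kb of it, with 4 over the antisense transcript *Hand2os1*. The cluster held 0 Gli3 MNP peaks and 1 Gli3 whole face peak, 13.0 kb downstream of the TSS. *Twist2*, a bHLH regulator of mesenchyme, lay in a cluster of 16 Hand2 peaks over 52.7 kb (chr1:91792676-91845345), 2 of them within 1 kb of a TSS and 11 in introns, with no Gli3 peak of either list. *Twist1*, its close relative, needed for the cranial neural crest, lay in one of the most compact clusters, with 11 Hand2 peaks in 24.7 kb (chr12:33955845-33980549) and a median gap of 648 bp, the lowest of all clusters. It had 1 Gli3 MNP peak, which covered the TSS and the gene body, and no Gli3 whole face peak. The E protein genes *Tcf12* and *Tcf4*, whose products pair with tissue-specific bHLH TFs, were at clusters of 9 and 8 Hand2 peaks. The *Tcf12* cluster held 1 Gli3 peak from each list and the *Tcf4* cluster only 1 from the whole face.

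**Figure D5:**
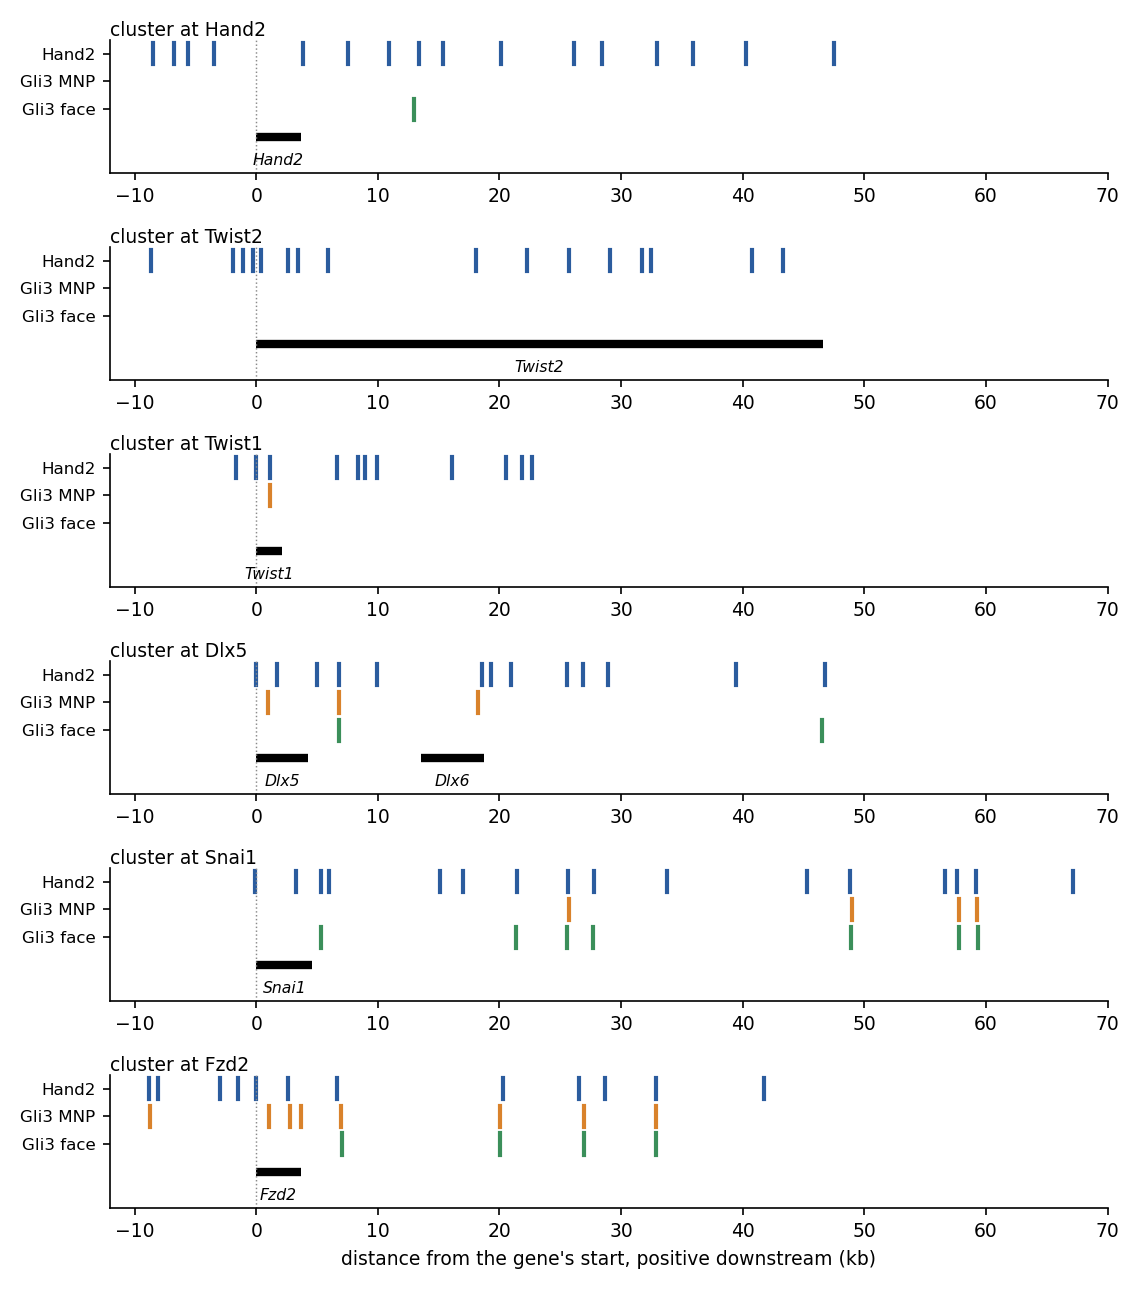
Positions of Hand2, Gli3 MNP and Gli3 whole face peaks (ticks at the peak midpoints) in 6 clusters, as distance in kb from the start of the named gene, positive in the direction of transcription; black bars are gene bodies. The *Hand2*, *Twist2* and *Twist1* clusters hold 11 to 16 Hand2 peaks and at most 1 Gli3 peak, while the *Snai1* and *Fzd2* clusters hold 11 and 12 Gli3 peaks in all, several at the same positions in both tissues.

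The clusters at the homeobox genes described next held 0 to 5 Gli3 peaks. *Dlx5* and *Dlx6*, which give the lower jaw its identity, shared a cluster of 13 Hand2 peaks (chr6:6834764-6882442) that held 3 Gli3 MNP and 2 Gli3 whole face peaks. A Hand2 peak 6.8 kb downstream of the *Dlx5* TSS touched Gli3 peaks of both tissues. *Gsc*, a marker of the lower arch, lay near 1 end of a cluster of 13 Hand2 peaks reaching 42.4 kb downstream of it (chr12:104430752-104478108), with CAGATG in 7 of them and 1 Gli3 peak from each list. *Msx2* had a pair of clusters upstream and none over its body, the first with 13 Hand2 peaks (chr13:53538442-53607721, 65.4 kb from the TSS) and the second with 8 (chr13:53669970-53709973, 197 kb away). Neither held a Gli3 peak, and 9 of the 13 peaks of the first held CAGATG. *Barx1*, expressed in proximal arch mesenchyme and molar fields, was 5.35 kb from a cluster of 8 Hand2 peaks that held 2 Gli3 peaks from each list, at the same positions. *Alx4*, a homeobox gene of facial mesenchyme, overlapped a cluster of 8 Hand2 peaks with 1 Gli3 peak, but all 8 were intronic and had *Ext2*, which encodes a heparan sulfate glycosyltransferase, as the nearest TSS. *Meis1*, whose product is a TALE homeodomain partner of other TFs, was in a cluster of 9 Hand2 peaks without Gli3 peaks.

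Among the signaling genes, *Ednra*, the endothelin receptor that acts ahead of *Hand2* in the arches, was covered by 11 Hand2 peaks (chr8:77670360-77724597), 10 of them in introns, and by no Gli3 peak. *Fzd2*, a Wnt receptor, was in the cluster richest in Gli3 MNP outside repeated sequence and histone genes, with 12 Hand2 peaks, 8 Gli3 MNP peaks and 4 Gli3 whole face peaks in 51.3 kb (chr11:102595089-102646405). All 4 whole face peaks, from 7.0 to 32.8 kb downstream of the TSS, touched MNP peaks. *Wnt11*, a noncanonical Wnt ligand, was in a cluster of 17 Hand2 peaks with 2 Gli3 MNP and 3 Gli3 whole face peaks (chr7:98784417-98875883). Within *Tcf7l2*, which encodes a nuclear effector of Wnt signaling, lay 8 Hand2 peaks and 1 Gli3 whole face peak.

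Of the Hedgehog genes, *Gas1*, which encodes a coreceptor for Shh, had clusters on both sides. One of 10 Hand2 peaks lay upstream (chr13:60226142-60268046) and held no Gli3 peak, and one of 8 lay downstream (chr13:60048126-60076690) and held 1 Gli3 whole face peak. *Disp1*, needed to release Shh from the cells that make it, overlapped a cluster of 9 Hand2 peaks with no Gli3 peak. The forkhead genes *Foxc2* and *Foxl1*, which respond to Hedgehog signaling, shared a cluster of 17 Hand2 peaks (chr8:121104027-121200675). It held 1 Gli3 peak from each list, at a position that no Hand2 peak touched. *Foxd2*, another forkhead gene, was given 3 clusters, but for all but the one over the gene the TSS of the gene model *Gm12830* was nearer. The middle one (chr4:114767041-114798421), 110 kb from the TSS, held 8 Hand2, 5 Gli3 MNP and 4 Gli3 whole face peaks, and all 5 and all 4 touched Hand2 peaks. The one over the gene held 8 Hand2 peaks and 1 Gli3 peak from each list, and the farthest, 203 kb from the TSS, held 9 Hand2, 0 Gli3 MNP and 3 Gli3 whole face peaks.

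*Snai1*, a zinc finger repressor of epithelial genes in neural crest, was at the end of the cluster with the most Gli3 whole face peaks, a place it shared with a cluster in *Gse1*. The *Snai1* cluster (chr2:167537811-167605437) held 16 Hand2, 4 Gli3 MNP and 7 Gli3 whole face peaks. All 4 MNP peaks were at positions of whole face peaks, between 25.7 and 59.2 kb downstream of the TSS, and all 11 Gli3 peaks touched Hand2 peaks. The *Gse1* cluster (chr8:120256948-120336431), wholly in introns of *Gse1* or the overlapping gene model *Gm20388*, held 18 Hand2, 2 Gli3 MNP and 7 Gli3 whole face peaks. *Ets1*, an endothelial and neural crest TF, and *Eya1*, a transcriptional coactivator, were each at a cluster of 9 Hand2 peaks and no Gli3 peak. The *Ets1* TSS lay inside its cluster, while the *Eya1* cluster overlapped no gene body and was 175.5 kb from the *Eya1* TSS. *Nr2f2*, a nuclear receptor, was the nearest gene to a cluster of 10 Hand2 peaks, but its TSS was 409 kb away.

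Other clusters rich in whole face Gli3 lay near genes in no list. At *Traf3ip2*, which encodes a signaling adaptor, a cluster of 10 Hand2 peaks that reached outside the gene held 5 Gli3 whole face and 0 Gli3 MNP peaks (chr10:39611124-39660588). Near *Hsd17b3*, a steroid dehydrogenase gene, 13 Hand2 peaks lay with 4 Gli3 MNP and 5 Gli3 whole face peaks (chr13:63980266-64040029), the 4 MNP peaks at positions of whole face peaks.

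The introns of *Dnm3*, a dynamin gene, held 2 clusters with different Gli3 content. The first (chr1:161998877-162084263) held 17 Hand2 peaks and no Gli3 peak. The second (chr1:162130887-162226015) held 19 Hand2, 5 Gli3 MNP and 4 Gli3 whole face peaks, and it ended over *Dnm3os*, the transcript on the other strand that gives rise to the microRNAs miR-199a-2 and miR-214. One Hand2 peak touched the *Mir199a-2* hairpin, and the nearest to the *Mir214* hairpin was 2097 bp away. In all, 11 of 1005 RefSeq miRNA hairpins (1.09%) lay in clusters. Hairpins touched by a Hand2 peak were *Mir199a-2* and, in a cluster of 9 Hand2 peaks over *Smg6* and *Hic1*, *Mir212* and *Mir132*. The mature sequences of these miRNAs (RefSeq, GRCm38.p6) are given with the seed, bases 2 to 8, in capitals, and were chosen after the positions were seen.
mmu-miR-199a-5p: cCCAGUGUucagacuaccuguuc
mmu-miR-199a-3p: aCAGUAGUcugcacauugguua
mmu-miR-214-3p: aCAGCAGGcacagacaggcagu
mmu-miR-212-3p: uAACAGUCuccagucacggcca
mmu-miR-132-3p: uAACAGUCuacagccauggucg

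miR-212-3p and miR-132-3p have the same seed. Long non-coding RNA genes overlapped 148 of the 381 clusters, and 53 of the 116 that had no protein-coding gene body. Counted once for each cluster there were 211 such overlaps, or 2.08% of the 10152 long non-coding RNA genes. For protein-coding gene bodies the share in clusters was 1.68%.

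None of the 12 clusters with the most Hand2 peaks was at a listed gene. The longest and largest, 38 Hand2 peaks over 139.7 kb near *Atg7* (chr6:114497147-114636842), stood in repeated sequence. All of its peaks shared 31-base words with other peaks, and 76.5% of the bases of its whole span were masked as repeats. By serial numbers the replicates differed, with 39 calls in replicate 1 and 56 in replicate 2. Next came 24 Hand2 peaks over *Lsp1*, *Tnnt3* and *Mrpl23* (chr7:142481200-142578086), ending at the imprinted transcript *H19*, with 2 Gli3 MNP and 4 Gli3 whole face peaks. A cluster of 22 lay in a stretch without genes nearest to *Fbxo8* (chr8:56603072-56707697), and one of 21 nearest to *Haao* (chr17:83861828-83972575), with 1 and 2 Gli3 MNP peaks. *Zmynd8*, a chromatin reader gene, held 20 Hand2 peaks, 6 of them within 1 kb of a TSS, and 1 Gli3 peak from each list. Of the 6 clusters of 19, one in *Dnm3* is described above, one lay over *Hist1h4h* and is described next, and the other four, nearest to *Rpusd4*, *Enc1* and *Sorl1* and over *Fignl1* and *Ddc*, held 0 to 1 Gli3 MNP peaks. The *Fignl1* and *Ddc* cluster had 4 Gli3 whole face peaks, and the others had 0 or 1.

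By peaks per length, the densest clusters were 10 Hand2 peaks in 16.5 kb nearest to *Npvf* (chr6:50806924-50823433), 8 in 15.5 kb at *Ifitm10* (chr7:142319334-142334806) and 8 in 16.1 kb at *Itgb5* (chr16:33822112-33838196). The *Npvf* cluster held 1 Gli3 whole face peak, the *Ifitm10* cluster 2 Gli3 peaks from each list and the *Itgb5* cluster 1 from each.

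The clusters over histone genes were among the 22 that held Gli3 peaks of the MNP list only. Outside clusters, Hand2 peaks within 1 kb of a TSS also touched the MNP list (29.4%) more often than the whole face list (7.82%). The 3 clusters over *Hist1* genes on chromosome 13, named here by *Hist1h4h*, *Hist1h1c* and *Hist1h1b*, held 19, 14 and 8 Hand2 peaks and 14, 7 and 6 Gli3 MNP peaks, and 0 Gli3 whole face peaks each. They thus held 27 of the 276 Gli3 MNP peaks in clusters. In the *Hist1h4h* cluster (chr13:23526460-23586982) 14 of the 19 Hand2 peaks were within 1 kb of a TSS. At least 50% of the Hand2 peaks shared 31-base words with other peaks in the *Hist1h4h* and *Hist1h1c* clusters. The cluster nearest to *Pdia4* (8 Hand2, 9 Gli3 MNP and 0 Gli3 whole face peaks) was also in repeated sequence, as was one over interferon genes including *Ifnz* (15 Hand2 peaks, no Gli3). In total 8 clusters met this description, with 118 Hand2, 36 Gli3 MNP and 3 Gli3 whole face peaks. Reads from repeated copies cannot always be placed, and the part of this in these counts was not tested. The 372 clusters that were neither in repeated sequence nor over *Hist1* genes held 3789 Hand2, 234 Gli3 MNP and 380 Gli3 whole face peaks.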

How the data were processed

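ChIP-seq of FLAG-tagged Gli3 (whole face, MNP) and Hand2 (MNP) was analysed, with 2 replicates per group mapped from the labels. The authors mapped 1 × 75 bp reads to mm10 (GRCm38); BWA, bedtools and HOMER are named, with no version, in the submitters' processing notes, and the peak caller of each list is not given in full in the sources used here. The deposited lists hold, per entry, a start, an end and the merged peak names, with no score or count, so peaks could not be ranked and depth is unknown. Entries hold calls of both replicates.

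Hand2 peaks were sorted and joined as described; 3 Gli3 MNP entries on chrM were not used, which left 5424 of 5427. Overlap means 1 bp or more. Genes and TSSs came from GENCODE vM21 (protein-coding), sequence from GRCm38.p6. A cluster was called repeated where at least 50% of its Hand2 peaks shared 50 or more 31-base words with another peak. Motifs were counted in both strands of the middle 200 bp. Shares were compared with a logistic model and a Wald test with sandwich errors grouped by run, two-sided, adjusted over 6 comparisons (statsmodels 0.14.6, threshold 0.05). Fits on distal or promoter peaks alone had no TSS comparison and were adjusted over the others. In simulated data without a difference 2 of 40 sets were called, and 40 of 40 with one. Only a single size of difference at a single base share was planted, so smaller differences and rarer features were not covered.

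Named are the genes of the 12 clusters with most Hand2 peaks, the 6 with most Gli3 MNP and the 6 with most Gli3 whole face peaks, the 5 largest without Gli3, the 3 longest, the 3 densest and every cluster with a listed gene, except some that are not reported here; others were named after their values were seen. The members, the lists and the tests were chosen with earlier results of these data known. Alternatives varied the gap, the peak minimum, the overlap, the TSS distance, the motif window, the comparison peaks, covariates, repeats and the 5S array.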

Additional observations from a re-analysis of the deposited data

How the results depend on the processing

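The number of clusters followed the rule: 36, 225 and 889 clusters with gaps of 5, 10 and 20 kb, and 962, 160 and 93 with at least 6, 10 and 12 peaks, against 381. The whole face odds ratio stayed above 1 in all 19 alternatives (1.31 to 2.47). It lost its call only where Gli3 had to cover 50% of the Hand2 peak (1.31, adjusted p = 0.37, n = 3915 cluster peaks). Few peaks met that rule, 1.07% of cluster and 0.820% of other peaks, and it asks for longer cover of the wider cluster peaks. The MNP odds ratio passed the test with a gap of 10 kb (1.48), with covariates (1.41), without promoter peaks (2.41), and, in alternatives chosen after seeing the data, without promoter peaks and repeated clusters (2.27) or with width and GC added (1.51); it was 0.954 with a gap of 20 kb. The TSS odds ratio was 1.06 with a gap of 5 kb and at most 0.724 otherwise.

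CAGATG was below 1 and past the test without promoter peaks (0.910), also without repeated clusters (0.914) or with covariates (0.919), and above 1 with gaps of 15 and 20 kb (1.02, 1.04), against lone peaks (1.00) and in whole peaks (1.17, adjusted p = 0.00012, n = 3915 cluster peaks), where cluster peaks are longer. TAATTA crossed 1 with gaps of 10 and 20 kb (0.998, 0.986), the 5S array kept (0.993), without promoter peaks (0.942), also without repeated clusters (0.963), and against lone peaks (0.994). GACCACCC crossed 1 at 10 and 12 peaks (0.740, 0.998) and against runs of 4 to 7 (0.975), and in whole peaks was 1.53 (adjusted p = 0.00057, n = 3915 cluster peaks).

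No paired analysis was possible because the authors merged both replicates into 1 list per group (59583 Hand2 peaks). Each entry holds calls of both, so leaving out a replicate was not run. Without heights, a stricter peak threshold was not run.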

Other observations

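The genes of this paragraph were chosen after their values were seen. The insulin-like growth factor 2 receptor gene *Igf2r* and its antisense transcript *Airn* overlapped a cluster of 10 Hand2 peaks with 1 Gli3 whole face peak (chr17:12714629-12751789) and another of 8 with no Gli3 peak (chr17:12764663-12802260). Sox genes expressed in many progenitor cells were the nearest genes to clusters in gene-poor ground. *Sox4* was nearest to clusters of 11 and 10 Hand2 peaks, 217 and 141 kb from its TSS, with 1 and 4 Gli3 MNP peaks and 2 and 3 Gli3 whole face peaks. *Sox11* was nearest to a cluster of 14, 141 kb away, with no Gli3 peak.

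The 5S ribosomal RNA array that was left out (chr8:123538644-123623923) held 49 Hand2, 38 Gli3 MNP and 43 Gli3 whole face peaks in 85.3 kb. All 49 Hand2 peaks shared 31-base words with other peaks, 0 held CAGATG in the middle 200 bp, and every Gli3 peak there touched a Hand2 peak.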
